A study of Homo sapiens with 6 samples.

Results

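The genes described here encode the subunits of the mitochondrial respiratory chain and of ATP synthase. They were chosen by name among the protein-coding genes of GENCODE release 29: the mitochondrial MT-ND, MT-CO, MT-CYB and MT-ATP genes, and the nuclear NDUF (A, B, C, S and V series), SDHA to SDHD, UQCR, COX4 to COX8 and ATP5 genes. They number 101 of the 58735 genes in the files, of which 19951 are protein-coding. Of these members 88 are nuclear (36 of complex I, 4 of complex II, 9 of complex III, 18 of complex IV with NDUFA4, and 21 of complex V) and 13 are encoded on the mitochondrial genome (7, 0, 1, 3 and 2). RNA was sequenced from NCI-N87, an established gastric carcinoma cell line, in 3 groups of 2 libraries. WT is the wild type line, and KO1 and KO2 are KRT17 knockouts of the same line, with no other allele or agent named. The sources used here do not give what separates KO1 from KO2, whether either is a single clone, or whether the 2 libraries of a group are separate cultures, so every p-value measures the spread between libraries, which may be technical.

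Complexes I to IV pass electrons from NADH or succinate through coenzyme Q and cytochrome c to oxygen. Complexes I, III and IV pump protons across the inner mitochondrial membrane as they do so, and complex V, the ATP synthase, uses the resulting gradient to make ATP. The mitochondrial genome supplies a few hydrophobic core subunits, whose mRNAs are cut out of polycistronic transcripts read from both strands. The nuclear subunits are transcribed from single genes on many chromosomes, translated in the cytosol and imported, while complex II is wholly nuclear.

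FPKM, the unit of the files, is the number of fragments per kilobase of exon, divided by 1 depth value a library. Levels of different genes are so compared per length. The recovered depth was 17599759 to 22852340 reads a library. Depth values in the deposited FPKM were 0.945 and 0.936 times the recovered depth in WT. They were 1.03 and 1.04 times it in KO1 and 1.05 and 1.05 times it in KO2. The deposited scaling is thus not by recovered reads alone, and it differs between WT and both knockouts. KRT17 stood at 739 and 753 FPKM (WT), 2.29 and 2.40 (KO1) and 11.3 and 10.4 (KO2). Epithelial markers marked the labelled origin in WT, where all 8 (EPCAM, CDH1, KRT8, KRT18, KRT19, CLDN4, CLDN7 and ESRP1) were at or above 1 FPKM and summed to 3848 to 3951. In the knockouts their sum was 404 to 415 in KO1 and 343 to 345 in KO2, 5 of 8 remained at or above 1 FPKM, ESRP1 was at 0 in both, and KRT19 was at 0 in KO2. The 8 fibroblast markers summed to 0.780 to 0.907 FPKM in WT, 44.8 to 45.2 in KO1 and 55.5 to 58.1 in KO2. Of these 8, the number at or above 1 FPKM was 0, 3 and 4. Sums were at most 2.19 FPKM for 7 leukocyte markers, 0.753 for 5 endothelial markers and 0.765 for 5 neuroendocrine markers in any library. The 8 striated muscle markers summed to 14.5 to 25.4 FPKM, with MYH7, MYH2 and TNNT3 at 0 throughout. The marker shifts divide WT from both knockouts as the member differences do, and their part in those differences was not tested. In such bulk libraries fewer cells of a type and less RNA per cell cannot be told apart.

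Changes were tested with limma on log2(FPKM + 1) over the 16046 genes that reached 1 FPKM in 2 libraries, and a gene is called higher or lower at an adjusted p below 0.05. A log2 change on this scale understates the change of genes near 1 FPKM. Of the members, 82 nuclear and all 13 mitochondrial ones passed the filter. COX7B2 and NDUFV2 passed only through the knockout libraries and COX7A1 only through WT. The 6 that did not pass were NDUFA7, COX4I2, COX6A2, COX8C, ATP5MGL and the read-through gene ATP5MF-PTCD1. Most genes differed in these libraries: 77.8% of all tested genes were called in KO1 minus WT (39.3% higher, 38.6% lower) and 78.9% in KO2 minus WT (39.1% higher, 39.8% lower). Among the 82 nuclear members 34 were higher and 34 lower in KO1 (82.9%), and 23 were higher and 36 lower in KO2 (72.0%), so being called was about as frequent as among genes at large. In KO2 the number higher rose to 39 under library-size scaling, 40 rescaled over nuclear genes and 39 under voom on recovered reads, with 34, 34 and 33 lower, and these scalings also moved the median of all tested genes upward. Their median log2 change was -0.03 in KO1, beside 0.02 over all tested genes, and -0.08 in KO2, beside 0.01. The 2 contrasts share the same WT libraries, so their counts are not independent of each other.

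A change of at least 1 log2 unit was called in 8 nuclear members of KO1 (3 higher, 5 lower) and in 12 of KO2 (4 higher, 8 lower). Across all tested genes such calls made up 14.8% higher and 14.5% lower in KO1, and 15.2% in each direction in KO2. COX7B2, which passed the filter only through the knockout libraries, is among the members so called higher in both. Summed over the nuclear members, the level was 4266 and 4239 in WT, 4301 and 4314 in KO1 and 4089.6 and 3824 in KO2 FPKM. The medians of the 88 single levels were 32.0, 28.5 and 27.8 FPKM. Both KO1 sums lay above and both KO2 sums below those of the WT libraries. As a share of all FPKM the sum was 1.37% and 1.36% in WT, 1.52% and 1.53% in KO1 and 1.49% and 1.40% in KO2, above WT in every knockout library, so the direction in KO2 depends on the scale.

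The 13 mitochondrial mRNAs were by far the most abundant members. Together they gave 49702 and 49382 in WT, 42383 and 41816 in KO1 and 41279 and 42591 in KO2 FPKM. Their share of all FPKM was 16.0% and 15.8% in WT, 14.9% and 14.9% in KO1 and 15.0% and 15.6% in KO2. By recovered reads, which do not weight genes by length, the share was 4.43% and 4.34% in WT, 4.13% and 4.10% in KO1 and 4.11% and 4.28% in KO2, with Wilson 95% intervals at most 0.0189 points wide that cover counting error only. The KO1 shares of FPKM lay below both WT libraries, as did those of KO2, although the second KO2 library was the closest to WT by either measure.

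Of the 13 mRNAs, 8 were called lower and none higher in KO1, and 9 lower and 1 higher in KO2 (limma, adjusted p below 0.05), beside 39.3% of all tested genes higher and 38.6% lower in KO1, and 39.1% and 39.8% in KO2. At an unadjusted p below 0.05 the count higher in KO1 was 0, and voom on recovered reads called 4 higher there. The median log2 change was -0.38 in KO1 and -0.32 in KO2. Scaling by library size moved the median of all tested genes to 0.14 in both knockouts and rescaling over nuclear genes to 0.15 and 0.16, and relative to that shift the mitochondrial median was -0.38 in KO1 and -0.30 and -0.29 in KO2, beside -0.41 and -0.33 with the deposited scaling. Under these 2 scalings 1 and 2 mRNAs were called higher in KO1, and 3 in KO2. Quantile normalization, which ties the top ranks of every library to one set of values, left it -0.11 and -0.02 from the median of all genes, with 3 and 4 mRNAs higher and 7 and 4 lower.

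Several mRNAs lost a large part of their level. MT-CYB, the only mitochondrial subunit of complex III, stood at 2737 and 2787 FPKM (WT), 1423 and 1417 (KO1) and 1537 and 1604 (KO2). It fell by 0.96 ± 0.03 log2 units (SE) in KO1 and by 0.81 ± 0.03 in KO2. MT-ND1, a membrane subunit of complex I next to the quinone site, was at 3139 and 3113 FPKM (WT), 2048 and 2078 (KO1) and 1760.4 and 1878 (KO2). MT-ND3, another complex I membrane subunit, was at 2820.3 and 2892 FPKM (WT), 2058 and 2039 (KO1) and 1442 and 1386 (KO2). Both knockouts lay below WT for these 2 mRNAs and KO2 lay below KO1, with log2 changes of -0.60 and -0.78 for MT-ND1 and -0.48 and -1.01 for MT-ND3. Under quantile normalization the MT-ND3 change in KO1 became 0, and that of MT-CYB in KO2 was no longer called (-0.21).

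MT-CO3, a core subunit of cytochrome c oxidase, was measured at 7643 and 7367 FPKM (WT), 5499 and 5223 (KO1) and 4879 and 5014 (KO2). MT-ATP6, the proton channel subunit of ATP synthase, was at 4195 and 4189 FPKM (WT), 3228 and 3188 (KO1) and 3136 and 3247 (KO2). MT-ND2 was at 2403 and 2362 FPKM (WT), 1837 and 1815 (KO1) and 1709.5 and 1782 (KO2). These 3 were lower in both knockouts, with log2 changes of -0.49 and -0.60 for MT-CO3, -0.39 and -0.39 for MT-ATP6, and -0.38 and -0.45 for MT-ND2, although quantile normalization turned MT-ND2 to 0.04 and 0.16 and the MT-CO3 call in KO1 was lost without a filter. MT-ND5 differed less, at -0.17 and -0.11. Its sign turned under quantile normalization (0.16 and 0.40), and in KO2 also under library-size scaling (0.05), rescaling over nuclear genes (0.07) and voom (0.05). The KO1 call was lost under library-size scaling (-0.04), rescaling over nuclear genes (-0.02) and without a filter (-0.17). The KO2 call was lost with a pseudocount of 0.1 (-0.11) and without a filter (-0.11), and the KO2 change was -0.09 without WT replicate 1.

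Other mRNAs of the same genome were not called in at least 1 knockout. MT-CO1, the catalytic subunit of cytochrome c oxidase and the highest member, was at 9142 and 8964 FPKM (WT), 8827 and 8569 (KO1) and 8168 and 8571 (KO2), and the log2 differences of -0.06 ± 0.05 and -0.11 ± 0.05 were not called, although the sign turned under voom (0.0777 and 0.0484) and the KO2 difference was called lower without KO2 replicate 2 (-0.15). MT-ND4 and MT-ND4L, which share 1 bicistronic mRNA, were not called in either knockout (-0.11 ± 0.04 and -0.02 ± 0.04 for MT-ND4, -0.03 ± 0.04 and -0.01 ± 0.04 for MT-ND4L). In KO2 both were called higher under library-size scaling, rescaling over nuclear genes and voom (0.15 to 0.18), as was MT-ND4 under quantile normalization (0.14). In KO1 MT-ND4 was called lower under quantile normalization (-0.09) and without KO2 replicate 1 or without KO2 replicate 2 (-0.11). There MT-ND4L was called lower under quantile normalization (-0.21) and higher rescaled over nuclear genes (0.12) and under voom (0.10). MT-CO2, which carries the copper site that takes electrons from cytochrome c, was at 6271 and 6442 FPKM (WT), 6702 and 6846 (KO1) and 7978 and 8152 (KO2). Its KO2 libraries were above all others, a rise of 0.34 ± 0.04 log2 units that was not called without a filter on low values (0.34), while the KO1 difference of 0.09 ± 0.04 was not called (adjusted p = 0.0878, limma). MT-CO2 in KO1 was called higher under quantile normalization, library-size scaling, rescaling over nuclear genes and voom (0.23 to 0.43), and in the fits without KO2 replicate 1 or without KO2 replicate 2 (0.09). MT-ND6, read from the opposite strand to the other 12, was at 1865 and 1755 FPKM (WT), 1872 and 1722 (KO1) and 1590.0 and 1503 (KO2). It was called lower in KO2 (-0.23 ± 0.06), but not in KO1 (-0.01 ± 0.06). The KO2 call was lost under library-size scaling (-0.06), rescaling over nuclear genes (-0.04), voom (-0.07), no filter (-0.23), without WT replicate 1 (-0.18) and without KO2 replicate 2 (-0.19), and quantile normalization turned the sign (0.22).

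Ratios between mitochondrial mRNAs do not change when all values of a library are multiplied by 1 factor. MT-CO2 relative to MT-CYB was 2.29 and 2.31 in WT, 4.71 and 4.83 in KO1 and 5.19 and 5.08 in KO2, so the ratio in each knockout library was above 2 times that of either WT library. Quantile normalization is no such scaling: under it KO2 minus KO1 was 0 for MT-CO2 and 0.24 for MT-CYB, beside 0.25 and 0.14 with the deposited scaling. As a part of the mitochondrial mRNA total, MT-CO2 took 12.8% in WT, 16.1% in KO1 and 19.2% in KO2, and MT-CYB took 5.58%, 3.37% and 3.75%. The change did not follow the order of the genes along the genome: MT-CO2 lies between MT-CO1 and the MT-ATP8 and MT-ATP6 pair, and MT-ND3, which was lower, lies next to MT-ND4L, which was not called. The 16S ribosomal RNA MT-RNR2, which is no member, was at 3630.5 and 3629.7 in WT, 5141 and 5118 in KO1 and 3408 and 3523 in KO2 FPKM, highest in the KO1 libraries. The 12S ribosomal RNA MT-RNR1 was at 777 and 763 in WT, 957 and 960.5 in KO1 and 911 and 890.1 in KO2 FPKM, above WT in every knockout library.

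**Figure D1:**
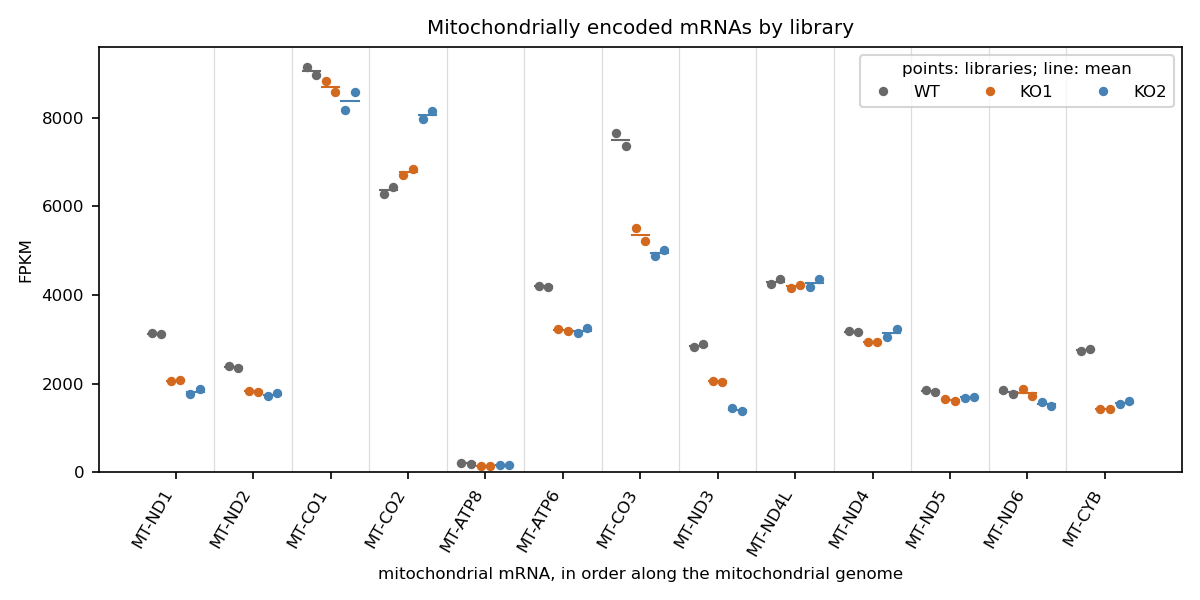
FPKM of the 13 mitochondrial mRNAs in each library, in gene order along the mitochondrial genome; points are libraries and short lines the mean of 2. MT-CYB, MT-ND1, MT-ND3 and MT-CO3 show WT above both knockouts, MT-CO2 shows KO2 highest, and MT-CO1, MT-ND4 and MT-ND4L overlap or nearly so.

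MT-ATP8, the other mitochondrial ATP synthase subunit, was far below its neighbours per length, at 207 and 194 FPKM (WT), 149 and 140.5 (KO1) and 164 and 156 (KO2). Its change was -0.47 ± 0.05 in KO1 and -0.32 ± 0.05 in KO2, where the call was lost under quantile normalization (-0.09). The gene lies at chrM:8366-8572 (GRCh38, plus strand), and 46 of its 207 bases are also coding sequence of MT-ATP6. The sequence is shown because reads from the overlap, in capitals, cannot be told apart between these 2 genes, which share 1 bicistronic mRNA.
MT-ATP8: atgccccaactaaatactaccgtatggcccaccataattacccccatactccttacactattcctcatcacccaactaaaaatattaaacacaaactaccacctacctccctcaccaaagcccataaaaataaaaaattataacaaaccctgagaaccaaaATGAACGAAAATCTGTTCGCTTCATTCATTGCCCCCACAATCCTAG

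Near-identical nuclear copies also limit what mitochondrial values can say, since the sources used here do not say how reads that fit several places were handled. The pseudogene MTND2P28 matches MT-ND2 at 98.4% of bases and stood at 225 and 230.2 FPKM (WT), 166 and 183 (KO1) and 169.7 and 161 (KO2). MTATP6P1 matches MT-ATP6 at 98.5% and stood at 436 and 464 FPKM (WT), 322 and 304 (KO1) and 323 and 356 (KO2). Both were called lower in both knockouts, like the genes they copy. MTCO1P12 matches MT-CO1 at 98.7% and behaved otherwise, at 25.7 and 27.6 FPKM (WT), 71.8 and 74.7 (KO1) and 65.1 and 71.0 (KO2), a rise of 1.43 and 1.32 log2 units where MT-CO1 itself was not called. The other 9 copies examined stood at most at 1.34 FPKM in any library.

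Complex I, the NADH dehydrogenase, had 13 of its 35 tested nuclear subunits higher and 15 lower in KO1, and 8 higher and 16 lower in KO2. Counts by complex stand beside 39.3% of all tested genes higher and 38.6% lower in KO1, and 39.1% and 39.8% in KO2. Its 7 nuclear core subunits carry the flavin and iron-sulfur centres. Of these, 5 were higher and 1 lower in KO1 (median 0.36), and 4 were higher and 1 lower in KO2 (median 0.32). Among the 28 tested accessory subunits 8 were higher and 14 lower in KO1 (median -0.25), and 4 were higher and 15 lower in KO2 (median -0.33). No test was made of the difference between core and accessory subunits. NDUFS3 was the core subunit that was lower in both (-0.21 and -0.63), and NDUFV2 was called in neither (0.28 and 0.32). The KO2 core median is the value of NDUFV2, which passed the filter only through the knockout libraries. The KO1 core median is that of NDUFS7, at 2.05 and 2.31 FPKM in WT. NDUFS7 has 49.1% of its exon bases in common with other genes.

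NDUFB11, an accessory subunit of the membrane arm (chrX:47142216-47145504, minus strand, GRCh38), was at 50.4 and 51.8 FPKM (WT), 134 and 129 (KO1) and 114 and 106 (KO2), 2.57-fold and 2.15-fold WT by FPKM. Of its exon bases 44.9% are shared with RBM10. NDUFA5, an accessory subunit of the peripheral arm, was at 2.78 and 2.45 FPKM (WT), 6.22 and 6.10 (KO1) and 6.63 and 5.87 (KO2). NDUFB11 and NDUFA5 were called higher in both knockouts, but NDUFA5 has 12 named pseudogenes and its level is uncertain for that reason. At the other end NDUFC1, a small membrane arm subunit, was at 38.5 and 39.7 FPKM (WT), 16.7 and 16.5 (KO1) and 15.5 and 14.4 (KO2). NDUFB6, also of the membrane arm, was at 51.6 and 54.8 FPKM (WT), 25.2 and 23.3 (KO1) and 24.3 and 21.7 (KO2). These 2 fell by 1.19 and 1.10 log2 units in KO1 and by 1.34 and 1.18 in KO2. NDUFA7 was listed at 0.385 to 0.758 FPKM in all libraries and was not tested.

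Complex II, the succinate dehydrogenase, is also an enzyme of the tricarboxylic acid cycle. The sum of its 4 subunits was 79.7 and 81.6 in WT, 108 and 108 in KO1 and 92.2 and 92.7 in KO2 FPKM, with both knockouts above WT. SDHA, the flavoprotein that oxidizes succinate, was at 22.7 and 23.3 FPKM (WT), 40.2 and 40.0 (KO1) and 33.4 and 33.4 (KO2), and rose by 0.77 ± 0.03 and 0.52 ± 0.03 log2 units. SDHC, one of 2 membrane anchors, was at 9.75 and 9.30 FPKM (WT), 14.6 and 14.1 (KO1) and 15.3 and 15.3 (KO2), and rose by 0.54 ± 0.04 and 0.63 ± 0.04. SDHB, the iron-sulfur subunit, was at 25.8 and 26.8 FPKM (WT), 26.7 and 26.0 (KO1) and 24.1 and 25.3 (KO2) and was not called (0.00 ± 0.04 and -0.09 ± 0.04), although it was called higher in KO1 under quantile normalization, library-size scaling, rescaling over nuclear genes and voom (0.12 to 0.15). SDHD, the other membrane anchor (chr11:112086773-112120013, plus strand, GRCh38), was at 21.4 and 22.1 FPKM (WT), 26.7 and 28.2 (KO1) and 19.5 and 18.6 (KO2). It was above WT in KO1 (0.32 ± 0.04) and below WT in KO2 (-0.18 ± 0.04), and KO2 differed from KO1 by -0.50 ± 0.04 log2 units (adjusted p = 0.00192, limma). The KO2 difference from WT was not called under quantile normalization, library-size scaling, rescaling over nuclear genes or voom (-0.05 to -0.01).

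Complex III, the cytochrome bc1 complex, held large changes in both directions. UQCRC1, a core protein on its matrix side (chr3:48599002-48610976, minus strand, GRCh38), was at 38.5 and 41.1 FPKM (WT), 131 and 132 (KO1) and 117 and 113 (KO2). This was 3.31-fold WT in KO1 and 2.88-fold in KO2 (log2 change in KO1 1.70 ± 0.04). Its partner core protein UQCRC2 was at 51.7 and 50.1 FPKM (WT), 38.3 and 36.8 (KO1) and 35.1 and 35.8 (KO2), lower in both knockouts. UQCR10, a small subunit (chr22:29767369-29770413, plus strand, GRCh38), was at 75.0 and 89.3 FPKM (WT), 26.6 and 29.0 (KO1) and 32.1 and 27.7 (KO2), 2.96-fold lower in KO1 and 2.75-fold lower in KO2. The WT libraries differed by more in UQCR10 than the knockout libraries did, and still lay more than 2 times above all of them.

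UQCRFS1, the Rieske iron-sulfur protein that hands electrons to cytochrome c1, was at 41.6 and 42.8 FPKM (WT), 19.7 and 19.2 (KO1) and 19.0 and 17.9 (KO2). UQCRB, which helps to form the quinone-binding pocket, was at 26.3 and 23.1 FPKM (WT), 12.4 and 12.3 (KO1) and 11.1 and 10.1 (KO2). Both fell, by 1.08 and 0.95 log2 units in KO1 and by 1.15 in KO2 for each. The small acidic hinge protein UQCRH was at 195 and 188 FPKM (WT), 227 and 221 (KO1) and 214 and 195 (KO2), called higher in KO1 (0.23 ± 0.05) and not called in KO2 (0.09 ± 0.05). The KO1 call was lost without KO1 replicate 1 (0.21), and in KO2 it was called higher under quantile normalization, library-size scaling, rescaling over nuclear genes and voom (0.26 to 0.32) and without KO2 replicate 2 (0.16). Its intronless copy UQCRHL, at 2.95 and 3.80 FPKM (WT), 4.17 and 4.32 (KO1) and 3.88 and 4.13 (KO2), was called in neither, but was called higher in both under library-size scaling, rescaling over nuclear genes, voom and without WT replicate 2 (0.33 to 0.49). With a replicate block UQCRHL was also called higher in KO1 (0.27). Reads of these near-identical genes may be split between them. UQCR11 was higher in KO1 (0.63 ± 0.06) and not called in KO2 (0.15 ± 0.06), although it was called there under library-size scaling, rescaling over nuclear genes and voom (0.29 to 0.35).

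**Figure D2:**
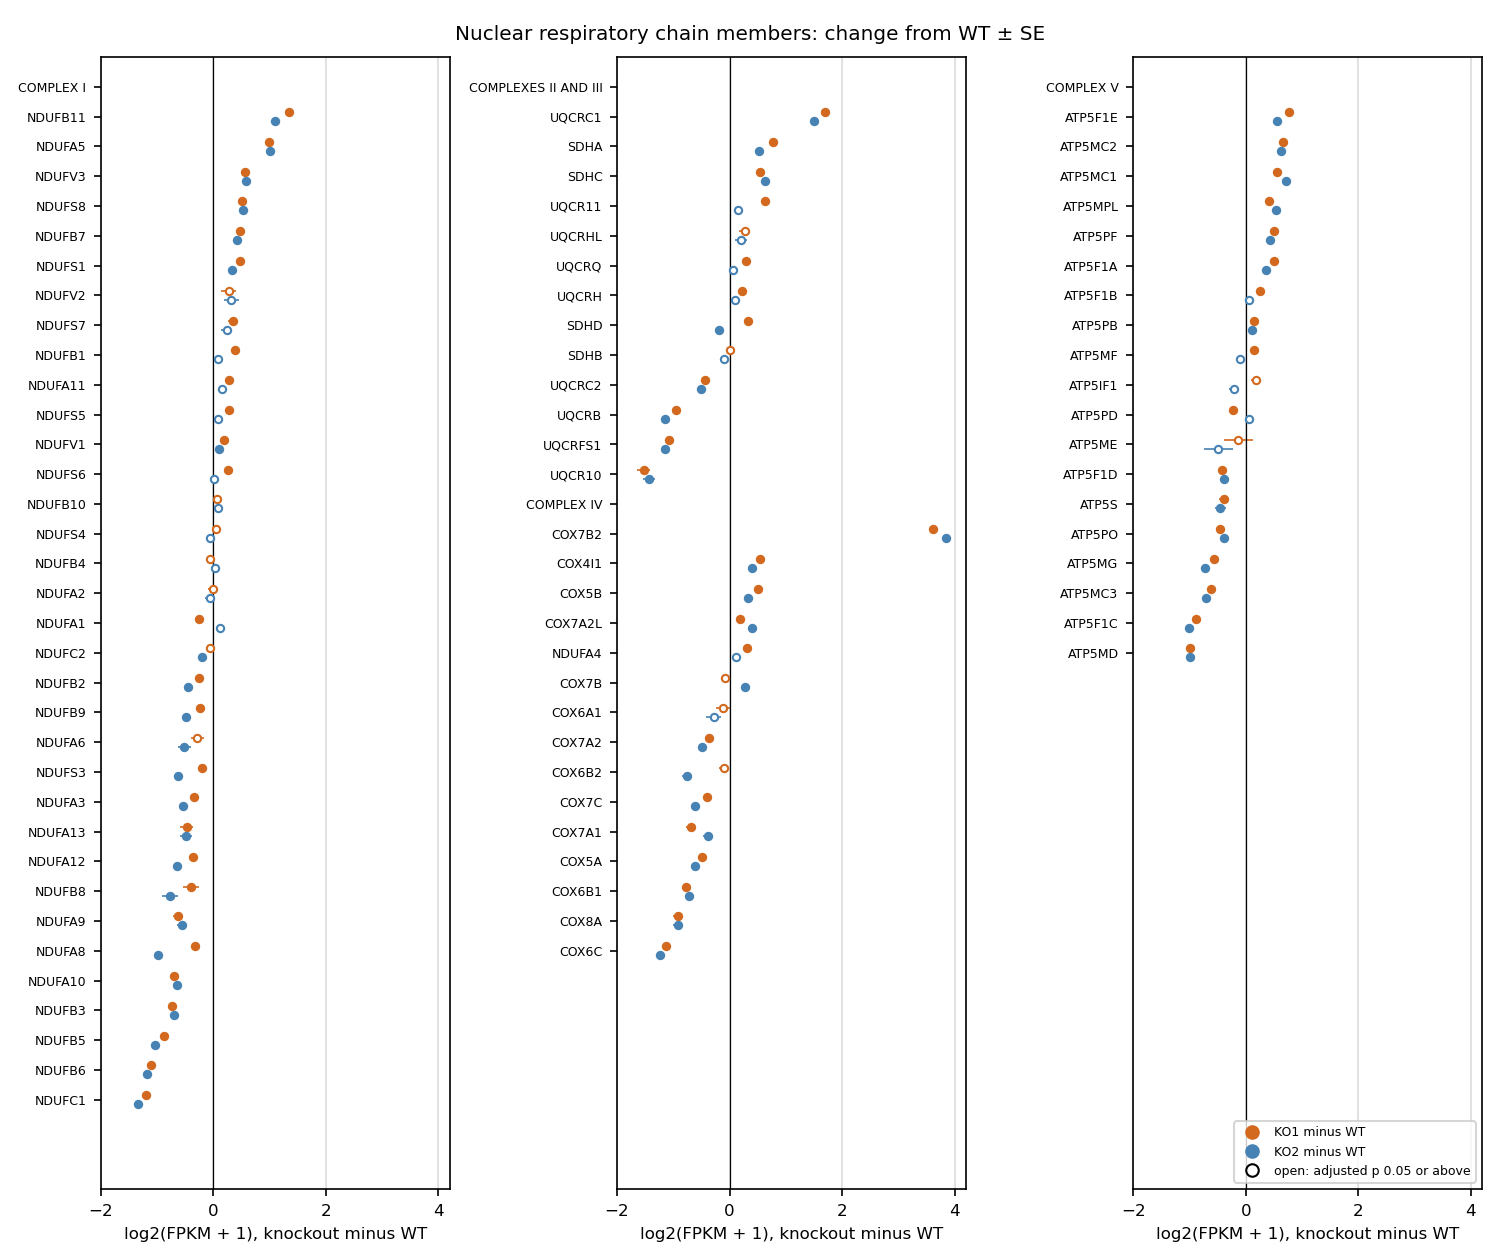
Log2 change from WT of each tested nuclear member but 1 (KO1 in orange, KO2 in blue, bars are the SE from limma, open points have an adjusted p of 0.05 or above), sorted within each complex. Members of every complex but II lie well to both sides of 0, from UQCR10 at -1.53 to COX7B2 at 3.62 in KO1.

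Complex IV, cytochrome c oxidase, reduces oxygen to water, and several of its nuclear subunits exist as paralogs used in different tissues. Summed over its 18 nuclear members, the level was 1009 and 993 in WT, 831 and 834 in KO1 and 818 and 756 in KO2 FPKM, below WT in every knockout library. Of 15 tested subunits 5 were higher and 7 lower in KO1, and 5 higher and 8 lower in KO2. The subunit COX7B2, a paralog of COX7B described mainly from testis, had 0 reads in WT. It stood at 11.8 and 10.8 FPKM in KO1 and 14.3 and 12.5 in KO2, from 188 to 227 reads a library. Against a floor of 3 reads in each WT library it was at least 60.3-fold higher in KO1 and at least 71.8-fold higher in KO2. COX7B2 passed the filter only through the knockout libraries, so its calls partly follow from that choice. It counts among the 5 higher in each knockout. COX7B itself was at 38.9 and 36.4 FPKM (WT), 34.4 and 36.5 (KO1) and 45.6 and 45.7 (KO2), not called in KO1 (-0.08 ± 0.04) and higher in KO2 (0.27 ± 0.04).

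The bases before the RefSeq start sites of this pair (GRCh38.p14), as far as no annotated exon reaches, are shown because a gene listed at 0 in WT and its expressed paralog can be set side by side. COX7B covers chrX:77899218-77899437, plus strand and COX7B2 covers chr4:46909246-46909495, minus strand. Neither holds GCGCATGC, CCGGAAG or AAGATGGC on either strand, so no base is in capitals.
COX7B: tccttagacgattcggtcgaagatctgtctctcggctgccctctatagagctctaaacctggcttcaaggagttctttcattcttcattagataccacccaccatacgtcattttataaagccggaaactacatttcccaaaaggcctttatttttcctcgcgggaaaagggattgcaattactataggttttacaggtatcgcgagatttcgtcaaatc
COX7B2: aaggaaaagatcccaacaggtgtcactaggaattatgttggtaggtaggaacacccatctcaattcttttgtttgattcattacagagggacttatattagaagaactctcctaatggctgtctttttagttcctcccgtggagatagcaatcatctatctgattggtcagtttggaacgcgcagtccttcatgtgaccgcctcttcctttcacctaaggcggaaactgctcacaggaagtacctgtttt

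COX6C, a membrane subunit with no paralog among the members, was at 67.4 and 62.8 FPKM (WT), 29.1 and 29.3 (KO1) and 26.6 and 27.2 (KO2), a fall of 1.13 ± 0.04 and 1.24 ± 0.04 log2 units. It has 17 named pseudogenes. COX8A, the widely expressed form of subunit VIII, was at 174 and 179 FPKM (WT), 89.8 and 96.1 (KO1) and 101 and 85.6 (KO2), 1.90-fold and 1.90-fold lower. Its paralog COX8C had 0 reads in all 6 libraries, which allows up to 3 reads in each, or at most 0.306 FPKM. COX4I1, the common form of subunit IV, was at 66.3 and 65.9 FPKM (WT), 95.7 and 97.7 (KO1) and 91.0 and 83.7 (KO2). It was higher in both knockouts (0.54 ± 0.04 and 0.40 ± 0.04), and its lung-type paralog COX4I2 had 1 read in the first WT library and 0 in the other 5.

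COX6A1, the general form of subunit VIa, was at 40.8 and 38.6 FPKM (WT), 37.6 and 35.4 (KO1) and 37.2 and 28.2 (KO2) and was not called. In KO2 COX6A1 was called lower with a replicate block (-0.28) and without KO2 replicate 1 (-0.48). Its muscle-type paralog COX6A2 had 0 to 3 reads a library. COX6B1 was at 149 and 144 FPKM (WT), 86.9 and 84.7 (KO1) and 89.4 and 88.2 (KO2) and fell by 0.77 ± 0.03 and 0.72 ± 0.03 log2 units. COX6B2, its testis-type paralog, was at 2.77 and 2.48 FPKM (WT), 2.61 and 2.16 (KO1) and 1.16 and 1.12 (KO2), lower in KO2 (-0.76 ± 0.09) and not called in KO1 (-0.10 ± 0.09).

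Subunit VIIa showed 3 forms. COX7A2, the general form, was at 71.7 and 70.4 FPKM (WT), 54.4 and 56.2 (KO1) and 53.5 and 46.9 (KO2) and lower in both knockouts. COX7A1, the muscle-type form, was at 1.20 and 1.14 FPKM (WT), 0.341 and 0.350 (KO1) and 0.609 and 0.696 (KO2), also lower in both, with the KO2 call lost under voom (-0.66). COX7A1 passed the filter only through WT, so its lower calls partly follow from that choice. It counts among the 7 and 8 complex IV subunits lower in KO1 and KO2. COX7A2L, which joins complexes III and IV in supercomplexes, was at 15.1 and 15.2 FPKM (WT), 17.1 and 17.6 (KO1) and 21.0 and 19.5 (KO2) and rose by 0.18 ± 0.04 and 0.39 ± 0.04 log2 units, a call in KO1 that was lost without KO1 replicate 2 (0.16). NDUFA4, once assigned to complex I and now to complex IV, was at 51.8 and 49.4 FPKM (WT), 64.4 and 62.1 (KO1) and 57.2 and 52.7 (KO2), higher in KO1 (0.32 ± 0.05) and not called in KO2 (0.12 ± 0.05). In KO2 it was called higher under quantile normalization, library-size scaling, rescaling over nuclear genes and voom (0.27 to 0.30), with a replicate block (0.12) and without KO2 replicate 2 (0.17). Its hypoxia-responsive paralog NDUFA4L2 was listed below 0.2 FPKM in every library and was not tested.

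**Figure D3:**
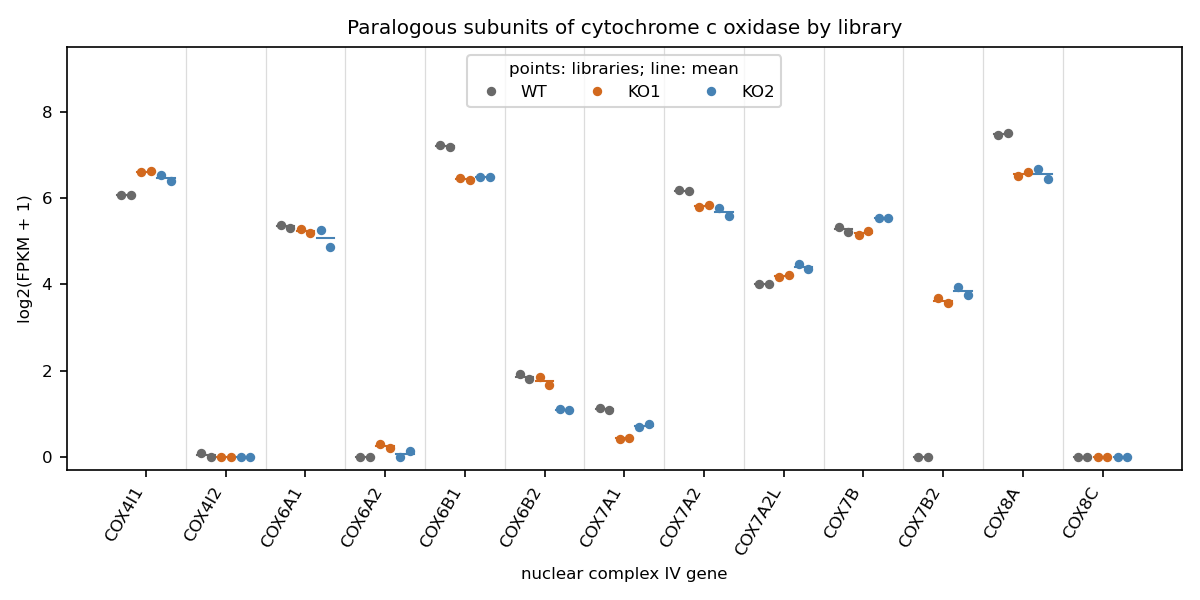
Level, as log2(FPKM + 1), of paralogous nuclear subunits of complex IV in each library; points are libraries and short lines the mean of 2. COX7B2 is at 0 in both WT libraries and above 3 in the 4 knockout libraries, while COX4I2, COX6A2 and COX8C stay near 0 in every library.

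Complex V, the ATP synthase, had 9 of 19 tested nuclear members higher and 8 lower in KO1, and 7 in each direction in KO2. ATP5F1B, the catalytic beta subunit and the highest nuclear member, was at 440.5 and 440.5 FPKM (WT), 521 and 524 (KO1) and 471 and 447 (KO2), higher in KO1 (0.25 ± 0.03) and not called in KO2 (0.06 ± 0.03). ATP5F1E, the small epsilon subunit of the central stalk, was at 29.8 and 29.5 FPKM (WT), 51.5 and 50.8 (KO1) and 46.0 and 41.8 (KO2), and rose by 0.77 ± 0.05 and 0.55 ± 0.05 log2 units. Of its exon bases 23.2% are shared with another gene. The 3 genes for the c subunit of the membrane ring encode the same mature protein and differ in their import sequences. ATP5MC1 was at 41.2 and 39.6 FPKM (WT), 59.4 and 60.1 (KO1) and 69.2 and 65.0 (KO2). ATP5MC2 was at 35.2 and 36.7 FPKM (WT), 56.9 and 58.2 (KO1) and 55.7 and 56.7 (KO2). ATP5MC3 was at 44.8 and 43.0 FPKM (WT), 28.7 and 27.6 (KO1) and 27.6 and 25.2 (KO2). ATP5MC1 and ATP5MC2 were higher and ATP5MC3 lower in both knockouts.

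KO1 and KO2 were compared with each other. In KO2 minus KO1, 26.2% of all tested genes were called, 11.2% higher and 15% lower. Among the 82 nuclear members 6 were higher and 22 lower in KO2 (34.1% in all), none by 1 log2 unit or more (0.511% higher and 0.86% lower over all tested genes), and the median was -0.12 beside -0.01 over all tested genes. These counts rest on few libraries: without KO1 replicate 1 they were 3 and 6, without KO1 replicate 2 they were 2 and 9, without KO2 replicate 1 they were 3 and 28, and without KO2 replicate 2 they were 5 and 14. Without a filter on low values they were 3 and 14. Of the 13 mitochondrial mRNAs MT-CO2 and MT-CYB were higher and MT-ND1 and MT-ND3 lower. The MT-ND1 difference turned to 0.0188 under quantile normalization. Without KO1 replicate 1, without KO1 replicate 2, with a pseudocount of 0.1 or without a filter none of the 13 was called higher and 1 was called lower.

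NDUFA8, an accessory subunit of complex I in the intermembrane space, was at 78.4 and 82.4 FPKM (WT), 62.4 and 66.0 (KO1) and 41.6 and 39.1 (KO2), and KO2 was lower than KO1 by 0.66 ± 0.05 log2 units. COX6B2 and SDHD, described above, differed by -0.66 ± 0.09 and -0.50 ± 0.04. UQCR11, a small subunit of complex III, was at 4.65 and 4.91 FPKM (WT), 7.65 and 8.30 (KO1) and 5.64 and 5.18 (KO2), a difference of -0.49 ± 0.06. In the other direction stood NDUFA1, a small membrane subunit of complex I, at 67.7 and 69.0 FPKM (WT), 58.1 and 55.5 (KO1) and 78.0 and 70.0 (KO2). Among called members, COX7B, ATP5PD and COX7A2L were the other 3 with the largest rises, at 0.36 ± 0.04, 0.29 ± 0.03 and 0.21 ± 0.04. ATP5PD, part of the peripheral stalk of ATP synthase, was at 42.3 and 41.4 FPKM (WT), 35.9 and 35.4 (KO1) and 42.8 and 44.8 (KO2). For NDUFA1 (0.37 ± 0.06) the call was lost without KO1 replicate 2 (0.34), and for COX7A2L without KO1 replicate 1 (0.19), without KO1 replicate 2 (0.23) or without KO2 replicate 1 (0.16).

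Nuclear members were also set beside the genes around them, a property the choice of members did not use. For 80 members with at least 5 other tested protein-coding genes within 2 Mb, the median log2 change of those neighbours was taken. Members higher in KO1 had neighbours with a median of 0.22 (33 members), members lower in KO1 -0.40 (33) and members not called -0.06 (14). In KO2 the medians were 0.30 (22), -0.47 (35) and -0.06 (23). Across members Pearson's r between a member's change and that of its neighbours was 0.58 in KO1 and 0.58 in KO2, and Spearman's rho was 0.73 and 0.76. Over 11487 tested protein-coding genes the same measures were 0.35 and 0.36 for r and 0.43 and 0.44 for rho. The points share their libraries, and members near each other share neighbours, so these values describe the genes and carry no p.

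Several of the most changed members lay among genes that moved the same way. The neighbours of UQCRC1 had medians of 0.80 and 0.86, and those of NDUFB11 0.84 and 0.79. COX6C, with -1.32 and -1.19, and UQCRB, with -1.10 and -1.12, both on chromosome 8, lay among genes that were lower. Some members differed from their surroundings: the neighbours of COX7B2 had medians of -0.36 and -0.40, those of NDUFS1, a core subunit of complex I that rose by 0.47 and 0.33, -0.43 and -0.47, and those of COX8A 0.01 and -0.08. NDUFB2, lower in both knockouts (-0.25 and -0.45), lay among genes with medians of 0.73 and 0.66; NDUFS1 and NDUFB2 were named after their values were seen. In KO2 minus KO1, NDUFA1 (0.40), COX7B (0.47) and ATP5PD (0.28) had neighbours with medians above 0 and NDUFA8 (-0.43) and SDHD (-0.22) below 0, while those of COX6B2 stood at -0.006. As groups, the 6 members called higher had a neighbour median of 0.23, the 21 called lower -0.006 and the 53 not called -0.03. Over the 80 members r was 0.57 and rho 0.17 in that contrast, beside 0.40 and 0.30 over the 11487 genes.

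**Figure D4:**
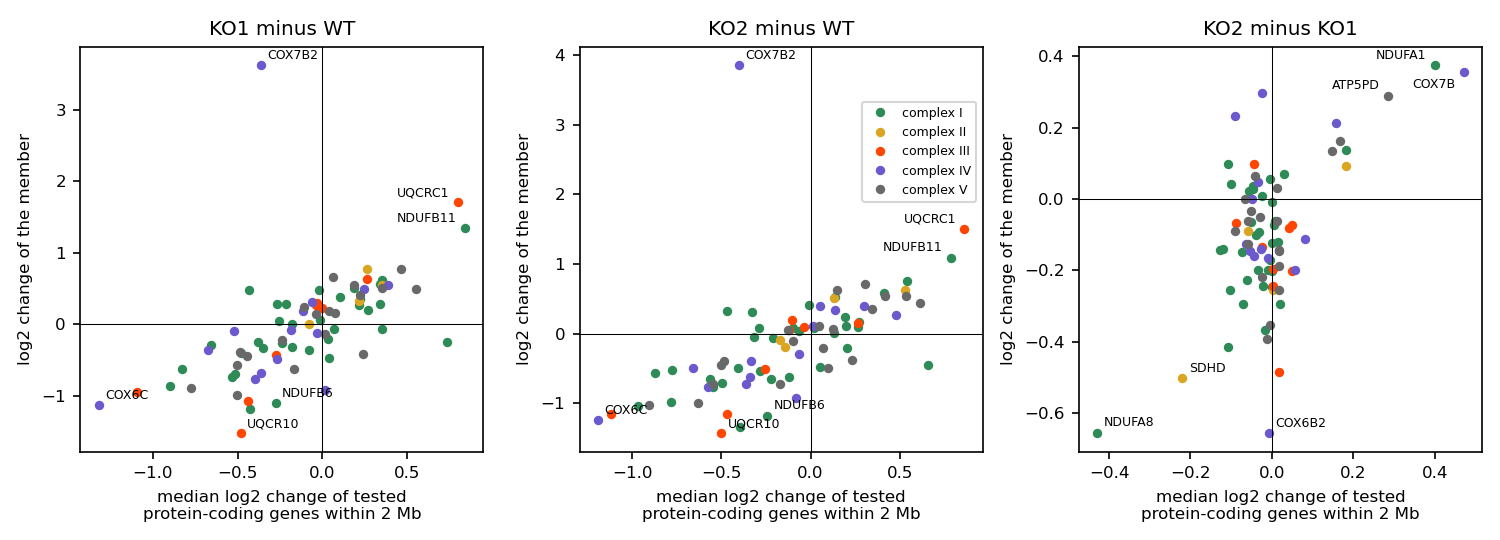
Log2 change of each nuclear member (vertical) against the median log2 change of tested protein-coding genes within 2 Mb of it (horizontal), 1 panel a contrast, coloured by complex. Points run from lower left (COX6C) to upper right (UQCRC1, NDUFB11) in both contrasts with WT, and COX7B2 lies far above the rest over lowered neighbours.

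RefSeq promoters (250 bases before to 50 after the start, GRCh38.p14) were found for 69 of the 88 nuclear members and searched on both strands for letters bound by factors known to act on respiratory chain genes. None of the 3 strings contains another, though GCGCATGC can overlap its own reverse complement. GCGCATGC, the core of the NRF1 site, was in 13 (18.8%), beside 5.55% of the promoters of 9639 tested protein-coding genes and 3.05% of all 35116. CCGGAAG, an ETS site of the kind GABPA binds, was in 20 (29.0%), beside 19.9% and 10.3%. AAGATGGC, a YY1 site, was in 11 (15.9%), beside 5.52% and 2.89%. In the 250 bases before the start alone AAGATGGC was in 1 (1.45%), beside 1.79% and 1.36%. There GCGCATGC was in 12 and CCGGAAG in 17. Among promoters of members higher in KO1, 9 of 28 held CCGGAAG, and among those lower in KO1, 8 of 26. In KO2 the counts were 5 of 21 higher and 7 of 27 lower. For GCGCATGC they were 6 of 28 and 2 of 26 in KO1, and 3 of 21 and 4 of 27 in KO2, and for AAGATGGC 4 of 28 and 3 of 26 in KO1, and 3 of 21 and 4 of 27 in KO2. A match is a description of the letters and not a site in use.

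Bases before the start, shown as far as no annotated exon reaches, are given for members across the range: COX5B rose, NDUFB4 was not called and UQCR10 had the deepest fall. Matches on either strand are in capitals. COX5B, the zinc-binding subunit of complex IV (chr2:97645812-97646039, plus strand), was at 93.4 and 94.4 FPKM (WT), 132 and 134 (KO1) and 125 and 113 (KO2), higher in both knockouts (0.50 ± 0.05 and 0.34 ± 0.05), and holds GCGCATGC on its reverse strand and CCGGAAG. NDUFB4, an accessory subunit of complex I (chr3:120596086-120596308, plus strand), was at 64.4 and 62.4 FPKM (WT), 60.3 and 60.7 (KO1) and 66.9 and 62.9 (KO2), with differences of -0.07 ± 0.04 and 0.03 ± 0.04, and holds GCGCATGC on both strands in overlapping matches. UQCR10 (chr22:29767119-29767368, plus strand) holds none of the 3. COX5B and NDUFB4 were chosen after their values were seen. Coordinates are of GRCh38.p14.
COX5B: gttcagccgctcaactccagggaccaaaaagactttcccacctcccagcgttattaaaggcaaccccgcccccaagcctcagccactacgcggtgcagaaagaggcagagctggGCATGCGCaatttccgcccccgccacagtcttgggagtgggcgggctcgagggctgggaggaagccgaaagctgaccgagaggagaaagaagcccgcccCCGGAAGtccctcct
NDUFB4: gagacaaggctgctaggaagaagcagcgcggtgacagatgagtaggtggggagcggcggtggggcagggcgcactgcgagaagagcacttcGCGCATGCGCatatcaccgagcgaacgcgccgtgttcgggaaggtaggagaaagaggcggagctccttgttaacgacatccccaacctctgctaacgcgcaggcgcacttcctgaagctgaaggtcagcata
UQCR10: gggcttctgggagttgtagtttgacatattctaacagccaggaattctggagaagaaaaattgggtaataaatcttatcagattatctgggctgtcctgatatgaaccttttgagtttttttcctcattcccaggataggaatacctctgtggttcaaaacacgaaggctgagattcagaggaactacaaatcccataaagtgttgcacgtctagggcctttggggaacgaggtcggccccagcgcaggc

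Shared sequence limits some of the nuclear values too. Of the 88 nuclear members 48 have exon bases in common with another annotated gene, 20 of them over at least 20% of their exon length, and 45 have at least 1 named pseudogene (159 in all). Among members named above the share is 44.5% for NDUFA1, 35.9% for NDUFB2, 34.5% for COX8A, 30.9% for COX6B2, 28.4% for NDUFV2 and 22.4% for NDUFS3. The sources used here do not say whether counting used strand, so reads of antisense partners may not be separated. Of the 14 tested nuclear members below 5 FPKM in WT, 10 had shared exon bases or a named pseudogene.

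Genes that act on the chain without being part of it were read from lists, to be set beside all tested genes, of which 39.3% were higher and 38.6% lower in KO1, and 39.1% and 39.8% in KO2. Of 20 tested regulators of mitochondrial gene expression 10 were higher and 8 lower in KO1, and 10 higher and 6 lower in KO2. PPARGC1A, the coactivator PGC-1 alpha, was at 0.166 and 0.200 FPKM (WT), 5.10 and 4.76 (KO1) and 4.03 and 3.99 (KO2). It rose by 2.33 ± 0.06 and 2.08 ± 0.06 log2 units from a level near 0. PPARGC1A passed the filter only through the knockout libraries, so its calls partly follow from that choice. It counts among the 10 higher in each knockout. The kinase subunit PRKAA1 was at 14.3 and 13.3 FPKM (WT), 40.4 and 40.0 (KO1) and 37.9 and 38.5 (KO2) and PPARD, a nuclear receptor of lipid metabolism, at 14.4 and 15.9 FPKM (WT), 4.85 and 4.97 (KO1) and 5.43 and 5.97 (KO2), the first higher and the other lower in both. GABPA, the ETS factor named above, was at 4.28 and 4.10 FPKM (WT), 7.00 and 6.25 (KO1) and 7.39 and 6.55 (KO2), higher in both, and shares exon bases with the member ATP5PF on the other strand. NRF1 was at 4.19 and 4.05 FPKM (WT), 4.29 and 4.66 (KO1) and 4.90 and 5.35 (KO2), not called in KO1 (0.10 ± 0.06) and higher in KO2 (0.26 ± 0.06). It was called higher in KO1 under library-size scaling, rescaling over nuclear genes and voom (0.21 to 0.25), and the KO2 call was lost without WT replicate 2 (0.24) or without KO2 replicate 2 (0.20).

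Of 30 tested genes for mitochondrial DNA transcription, replication and RNA handling 9 were higher and 16 lower in KO1, and 7 higher and 17 lower in KO2, with medians of -0.12 and -0.29. TFAM, which packages mitochondrial DNA and starts its transcription, was at 31.3 and 29.4 FPKM (WT), 19.7 and 19.4 (KO1) and 16.3 and 15.7 (KO2). POLRMT, the mitochondrial RNA polymerase, was at 15.1 and 15.1 FPKM (WT), 27.5 and 26.6 (KO1) and 28.7 and 26.1 (KO2). These 2 partners differed in direction, TFAM lower (-0.61 and -0.88) and POLRMT higher (0.80 and 0.81) in both knockouts. The replicative helicase TWNK was at 17.6 and 18.7 FPKM (WT), 7.88 and 7.50 (KO1) and 7.28 and 7.25 (KO2). SLIRP, which stabilizes mitochondrial mRNAs, was at 28.3 and 29.3 FPKM (WT), 11.5 and 11.8 (KO1) and 11.8 and 11.8 (KO2). FASTK, of a family that processes mitochondrial RNA, was at 9.19 and 10.1 FPKM (WT), 25.1 and 26.2 (KO1) and 26.7 and 26.5 (KO2). TWNK and SLIRP were lower and FASTK higher in both knockouts.

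Among 53 tested assembly factors of complexes I to V, 18 were higher and 24 lower in KO1, and 19 higher and 22 lower in KO2. NDUFAF3, an early complex I assembly factor, was at 5.67 and 5.52 FPKM (WT), 26.6 and 26.6 (KO1) and 20.5 and 21.8 (KO2). ECSIT, also of complex I assembly, was at 28.8 and 28.0 FPKM (WT), 8.66 and 9.45 (KO1) and 10.3 and 8.29 (KO2), and TMEM70, which acts in ATP synthase assembly, at 22.2 and 20.5 FPKM (WT), 7.68 and 8.11 (KO1) and 7.34 and 7.57 (KO2). NDUFAF3 was higher and the other 2 lower in both knockouts. Of 20 tested genes for electron carriers and coenzyme Q synthesis 6 were higher and 11 lower in KO1, and 6 higher and 12 lower in KO2. Cytochrome c, CYCS, was at 79.8 and 76.0 FPKM (WT), 64.7 and 63.3 (KO1) and 52.7 and 51.4 (KO2), and fell by 0.28 ± 0.03 and 0.57 ± 0.03 log2 units. PDSS1, which makes the side chain of coenzyme Q, was at 16.1 and 16.6 FPKM (WT), 5.42 and 5.65 (KO1) and 4.44 and 5.98 (KO2). COQ4 was at 8.39 and 8.35 FPKM (WT), 16.5 and 16.5 (KO1) and 17.2 and 16.4 (KO2) and COQ10A at 2.24 and 2.23 FPKM (WT), 6.53 and 6.25 (KO1) and 6.73 and 6.10 (KO2). PDSS1 was lower and COQ4 and COQ10A higher in both knockouts.

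**Figure D5:**
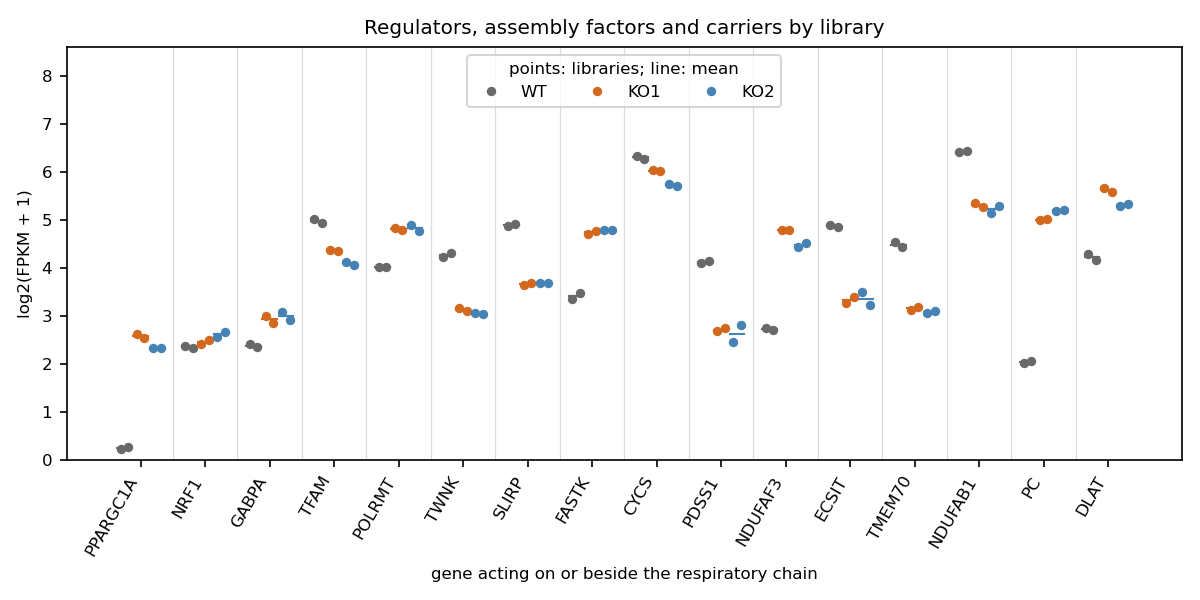
Level, as log2(FPKM + 1), of regulators, mitochondrial RNA and DNA factors, assembly factors and carriers in each library; points are libraries and short lines the mean of 2. PPARGC1A, FASTK, NDUFAF3 and PC show both knockouts above WT, and TFAM, TWNK, SLIRP, ECSIT and TMEM70 show both below it.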

How the data were processed

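RNA libraries of the 6 samples (2 each of WT, KO1 and KO2) were deposited as 1 table a library. The values are FPKM per gene, which the authors computed and deposited, per the file headers. HISAT2 2.0.5 and featureCounts 1.5.0-p3 with the hg38 build are named per the submitters' processing notes. Not given in the sources used here are each tool's role, strand use, the treatment of multiply mapped reads and the annotation release. All 58735 gene IDs matched GENCODE 29, whose exon lengths turned every FPKM value into a whole number of reads (100% within a tolerance of 0.1 read).

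A limma model (version 3.58.1, R 4.3.3) with a mean-variance trend was fitted to log2(FPKM + 1) of the 16046 genes that reached 1 FPKM in 2 libraries. All 6 libraries shared 1 estimate of the spread (3 residual and 2.05 prior degrees of freedom), and p-values were adjusted by Benjamini-Hochberg over all tested genes, called below 0.05. Counts of members and lists are to be read beside the shares called over all tested genes, and no set test was made. Replicate pairs differed by more than sampling noise (chi-square per degree of freedom 1.80 to 2.46), so each library counted once. The procedure was tested on simulated data.

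The members and lists were chosen with earlier results of these data known. Named are all mitochondrial members, paralogs and complex II, the 6 highest and 6 lowest nuclear members called the same way in both contrasts with WT, the 4 highest and 4 lowest in KO2 minus KO1, the 3 most changed genes of each pathway list, and PPARGC1A, TFAM, POLRMT, NRF1, GABPA and CYCS. For 1 nuclear member the single values are not reported here, and it stays in the counts. Alternatives were a pseudocount of 0.1, no filter, 3 other scalings, voom on recovered reads, a replicate block and leaving out each library.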

Additional observations from a re-analysis of the deposited data

Results flagged for a closer look

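SDHD, a membrane anchor of complex II, was picked out because its 2 knockout groups moved in opposite directions from WT and the difference between them was itself called. It stood at 21.4 and 22.1 FPKM (WT), 26.7 and 28.2 (KO1) and 19.5 and 18.6 (KO2). The log2 change was 0.32 ± 0.04 in KO1 and -0.18 ± 0.04 in KO2, and KO2 minus KO1 was -0.504 (SE 0.04, adjusted p = 0.00192, limma). Across the alternatives the difference between knockouts kept its sign and its call, while the call of KO2 below WT was lost under 4 scalings (-0.05 to -0.01). The gene shares 12.2% of its exon bases with another gene and has 3 named pseudogenes, and the part of either in the difference was not tested.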

How the results depend on the processing

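Of 2763 values of named genes under alternatives, 2563 kept their side of the threshold, 100 lost a call, 77 gained one and 23 reversed. A change of sign counted as a reversal only where the gene was called in the reported fit or in the alternative. Sign changes of uncalled values stand among the 2563, as for SDHB in KO1 with 1 library left out (-0.03 to 0.03). The causes were not tested. The median log2 change of nuclear members in KO1 minus WT (-0.03) was 0.0832 under quantile normalization, 0.0996 under library-size scaling, 0.117 rescaled over nuclear genes and 0.103 under voom, and -0.0312 to 0.0270 with 1 library left out. In KO2 minus WT (-0.08) it was 0.0644, 0.0797, 0.102 and 0.0882 in the same order, and 39, 40 and 39 nuclear members were called higher under the last 3, against 23. The mitochondrial median in KO1 (-0.38) was -0.0888, -0.25, -0.23 and -0.25, with 3, 1, 2 and 4 called higher, and 0 to 1 with a library left out. In KO2 (-0.32) it was 0, -0.16, -0.14 and -0.16, or -0.37 to -0.28 with a library left out. There 4, 3, 3 and 5 were called higher, 0 without a filter, and 4 lower under quantile normalization.

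In KO2 minus KO1 the nuclear counts without a filter were 3 higher and 14 lower, and with 1 library left out 2 to 7 higher and 6 to 28 lower, the median lying at -0.132 to -0.0683. Mitochondrial mRNAs called higher there were 0 with pseudocount 0.1 or no filter, 4 under quantile normalization or voom, and 0 to 3 with a library left out. Those called lower were 1 with pseudocount 0.1, no filter, quantile normalization, library-size scaling or rescaling over nuclear genes, 4 under voom and 1 to 2 with a library left out. Their median (-0.01) was 0.11 under quantile normalization.

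The reversals so counted were all in mitochondrial mRNAs. Under quantile normalization the log2 change in KO1 was 0.0427 for MT-ND2, 0.16 for MT-ND5 and 0.39 for MT-ND6, and in KO2 0.16 for MT-ND2, 0.14 for MT-ND4, 0.40 for MT-ND5 and 0.22 for MT-ND6. In KO2 minus KO1 it was 0.0188 for MT-ND1 and 0.22 for MT-ATP6. Under voom MT-ND4L was 0.10, MT-ND6 0.12 and MT-CO1 0.0777 in KO1, and MT-ND4 0.15, MT-ND4L 0.16, MT-ND5 0.0477 and MT-CO1 0.0484 in KO2. Rescaled over nuclear genes MT-ND4L was 0.12 in KO1, and MT-ND4, MT-ND4L and MT-ND5 were 0.17, 0.18 and 0.0729 in KO2. Under library-size scaling these 3 were 0.15, 0.16 and 0.0496.

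Replicate numbers did not pair the libraries (correlations of deviations 0.02, -0.00406 and -0.04). With a replicate block the nuclear calls were 35 higher and 34 lower in KO1, 24 and 39 in KO2, and 5 and 22 in KO2 minus KO1. Mitochondrial calls with the block were 0 and 8, 1 and 9, and 2 and 3. Fits that leave out a library assume that the lone library of its group varies like the others. Depth limits COX4I2, COX6A2 and COX8C, which had 0 to 3 reads a library.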

Other observations

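Genes of the tricarboxylic acid cycle, which feeds NADH and succinate to the chain, were read from a list: 9 of 18 tested genes were higher and 7 lower in KO1 (7 and 1 by at least 1 log2 unit), and 9 were higher and 8 lower in KO2 (7 and 1 by at least 1). Of all tested genes 39.3% were higher and 38.6% lower in KO1 (14.8% and 14.5% by at least 1), and 39.1% and 39.8% in KO2 (15.2% each by at least 1). Their median log2 change was 0.34 in KO1 and 0.40 in KO2, and no test of the list was made. PC, pyruvate carboxylase, was at 3.05 and 3.18 FPKM (WT), 30.9 and 31.1 (KO1) and 35.4 and 35.8 (KO2), 9.96-fold and 11.4-fold WT. DLAT, a subunit of the pyruvate dehydrogenase complex, was at 18.5 and 16.8 FPKM (WT), 49.3 and 47.0 (KO1) and 37.9 and 39.1 (KO2). SUCLG2, a subunit of the GTP-forming succinyl-CoA ligase, was at 11.5 and 10.8 FPKM (WT), 28.2 and 28.2 (KO1) and 27.7 and 28.9 (KO2). These 3 genes were called higher in both knockouts.

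Of 5 tested genes related to the chain but outside the naming rule, 3 were higher and 2 lower in each knockout. NDUFAB1, the acyl carrier protein that is also a subunit of complex I, was at 83.6 and 85.4 FPKM (WT), 39.7 and 37.6 (KO1) and 34.4 and 38.1 (KO2), a fall of 1.11 ± 0.06 and 1.20 ± 0.06 log2 units. UCP2, a carrier of the inner membrane, was at 14.2 and 15.5 FPKM (WT), 35.9 and 36.3 (KO1) and 27.7 and 26.8 (KO2), higher in both knockouts and lower in KO2 than in KO1 (-0.40 ± 0.05). HIGD1A, which binds cytochrome c oxidase, was at 23.2 and 21.6 FPKM (WT), 36.7 and 36.2 (KO1) and 32.9 and 33.2 (KO2), higher in both.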
